A study of Homo sapiens with 12 samples.

Results

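HEY1, HEY2 and HEYL encode the HEY family of basic helix-loop-helix repressors, which also carry an Orange domain. They are described here by the Notch3 chromatin immunoprecipitation and sequencing (ChIP-seq) peaks around them. A peak belonged to a gene when its summit lay within 100 kb of the gene's span on build hg38, and 14 of the 12583 peaks of the series did so. HEY1 (chromosome 8, 79764010 to 79767767) had 6 of them, HEY2 (chromosome 6, 125749632 to 125761269) had 4 and HEYL (chromosome 1, 39623435 to 39639643) had 4.

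When a ligand binds a Notch receptor, the intracellular domain is cut free, enters the nucleus and joins the DNA-binding protein RBPJ and a Mastermind coactivator on target genes. The HEY genes are among the best known direct targets of this complex. Their products repress other genes, and they are known for roles in the heart and the vessel wall, where Notch3 is the main Notch receptor of pericytes and vascular smooth muscle.

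The cells were neural crest cells differentiated from the human embryonic stem cell line H9, which is long established. One group received a lentivirus for the Notch3 intracellular domain with GFP, called N3ICD here, and the labels give its cell type as mural. The other received a GFP lentivirus, and its label is neural crest. Both were collected 6 days after transduction and precipitated with the same Notch3 antibody, in 3 libraries each, named A, B and C, the order in which values of a group are given below. The series text states 3 independent differentiations of this single line. The N3ICD sites are thus those seen in cells that received the protein by virus. Whether the captured Notch3 came from the virus was not tested. The virus and the labelled cell type differ together, so their parts in a difference cannot be told apart here. Peaks do not measure expression, so the labelled cell types could not be checked against their markers.

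The N3ICD lists held 2226, 2490 and 3397 peaks and the GFP lists 1219, 1533 and 1718. Read totals are not given in the sources used here. The background pileup implied by the deposited values, the relative measure of depth, was 1.27, 1.58 and 0.926 stacked fragments with N3ICD, against 1.46, 1.21 and 1.90 with GFP. N3ICD C, with the lowest background and the longest list, held 8 of the 14 HEY peaks, so the main results are given with and without it. The part of its depth in that count was not tested.

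The HEY2 and HEYL promoters are printed because the promoter table used held these 2 HEY genes and not HEY1. They were not chosen by their peaks or letters. Notch3 peaks lay on both, and both hold the core letters bound by RBPJ. The sequences are RefSeq's, on GRCh38.p14, read 5′ to 3′ on the strand of the gene. HEY2 is chr6:125749382-125749634 on the plus strand, and runs from 250 bases before the start to base 3 of the gene. HEYL is chr1:39639644-39639893 on the minus strand, the 250 bases before its start. Capitals mark TGGGAA, the RBPJ core, or its 7-letter form GTGGGAA, on either strand, so that TTCCCAC is GTGGGAA read from the other strand.
HEY2: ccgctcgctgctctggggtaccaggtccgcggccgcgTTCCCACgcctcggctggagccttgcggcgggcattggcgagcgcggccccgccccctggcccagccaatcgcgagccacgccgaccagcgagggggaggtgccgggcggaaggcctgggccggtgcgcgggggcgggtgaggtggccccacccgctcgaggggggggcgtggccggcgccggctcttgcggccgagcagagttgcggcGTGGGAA
HEYL: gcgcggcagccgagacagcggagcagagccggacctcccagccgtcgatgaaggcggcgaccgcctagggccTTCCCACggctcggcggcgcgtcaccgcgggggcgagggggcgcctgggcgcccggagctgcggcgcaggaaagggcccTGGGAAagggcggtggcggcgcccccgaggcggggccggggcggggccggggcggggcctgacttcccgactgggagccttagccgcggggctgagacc

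The first comparison asked whether Notch3 was captured around the HEY genes more often in cells that carried N3ICD. All 14 peaks came from N3ICD libraries. The N3ICD libraries had 3, 3 and 8 and the GFP libraries 0, 0 and 0, so the groups did not overlap. How often other sets of 3 genes would do the same was not counted. The means were 4.67 ± 2.89 peaks for N3ICD libraries and 0 ± 0 for GFP libraries (SD, n = 3 each), a difference of 4.67 (two-sided exact permutation p = 0.1, the smallest that 3 libraries against 3 allow, and 0.125 after Benjamini-Hochberg adjustment over 5 tests). Per 1000 peaks of the library, the HEY windows held 1.35, 1.20 and 2.36 with N3ICD and 0 in every library with GFP (exact permutation p = 0.1, adjusted p = 0.125). When each library gave only its 1219 most significant peaks, the HEY windows held 2, 2 and 7 with N3ICD and none with GFP. Without N3ICD C the difference was 3 peaks per library, and 1.28 per 1000 peaks against 1.64 with it.

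**Figure D1:**
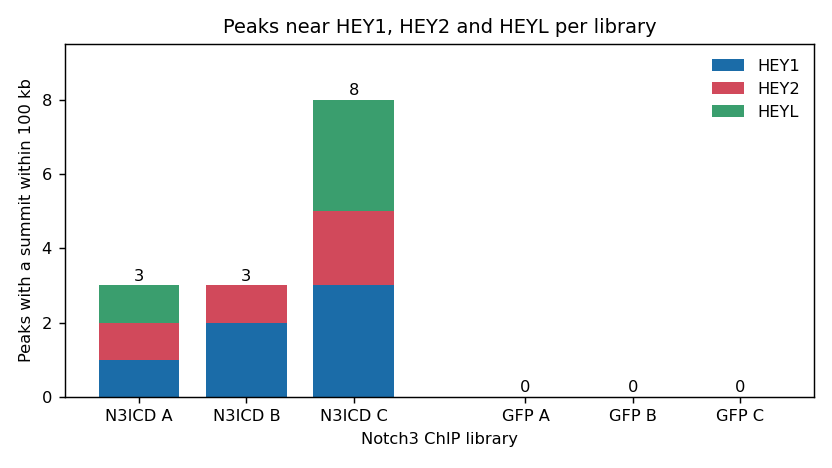
Stacked bars give the number of peaks with a summit within 100 kb of HEY1, HEY2 or HEYL in each of the 6 Notch3 ChIP libraries, with the total above each bar. N3ICD A, B and C hold 3, 3 and 8 peaks, and the GFP libraries hold none.

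The genes differed in how evenly the N3ICD libraries covered them. HEY1 had 1, 2 and 3 peaks with N3ICD and 0 in every library with GFP, and HEY2 had 1, 1 and 2 against 0 in every one (exact permutation p = 0.1 and adjusted p = 0.125 for both). HEYL had 1, 0 and 3 peaks with N3ICD and 0 in every library with GFP, so the groups overlapped at 0 (exact permutation p = 0.4, adjusted p = 0.4). A count higher in every N3ICD library than in every GFP library was thus found at 2 of the 3 genes, and at 2.97% of the 20033 protein-coding genes tested. This did not hold in every setting. With equal numbers of peaks HEY2 had 0, 0 and 2 peaks with N3ICD (exact permutation p = 1) and no N3ICD-only region. Within 10 kb HEY1 had 0, 1 and 1 (exact permutation p = 0.4). Without N3ICD C the difference was 1.5 peaks at HEY1, 1 at HEY2 and 0.5 at HEYL, against 2, 1.33 and 1.33 with it. Any peak in the window was found at 17.1%, 29.7% and 35.2% of these genes with N3ICD, against 5.47%, 8.05% and 7.7% with GFP. At least as many N3ICD peaks as the 6 of HEY1 were found at 0.844% of genes, and at least the 4 of HEY2 and of HEYL at 4.76%.

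A missing peak in a list does not show that no fragments were there, and sites with no listed peak carry no value here. The lowest pileup of any listed peak was 7, 6 and 8 stacked fragments with GFP, and the HEY peaks had pileups of 6 to 32 at their summits. Of the 14, 13 reached the lowest listed pileup of GFP A, 14 that of GFP B and 12 that of GFP C. Pileups are not scaled for depth, so these counts do not show that such sites would have been listed with GFP. GFP peaks lay well away from HEY1 and HEY2. The nearest GFP summit to HEY1 was 306, 857 and 1642 kb away in GFP A, B and C, and the nearest to HEY2 was 2786, 606 and 680 kb away. The closest approach was at HEYL, where a weak GFP B peak (fold 3.63, −log10 q 0.226) lay 140 kb from the gene, beyond the 100 kb limit. The nearest N3ICD summits beyond the limit were 124 kb from HEY1 and 196 kb from HEY2, both in N3ICD C, and 316 kb from HEYL, in N3ICD A. The farthest HEY peaks within the limit were 59.9 kb from HEY1, 29.4 kb from HEY2 and 46.8 kb from HEYL. An absence of GFP peaks is common, since 82.2% of protein-coding genes had none within 100 kb in any GFP library.

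The next question was which sites were found again. Overlapping peaks formed 9 regions around the HEY genes. In 4 of these regions at least 2 N3ICD libraries and no GFP library had a peak, here called N3ICD-only, and the other 5 regions each rested on 1 peak of 1 library. HEY1 had 2 N3ICD-only regions, HEY2 had 1 and HEYL had 1. All 3 genes therefore had such a region, whereas 3.87% of protein-coding genes did, 0.21% had 2 or more of them and 0.469% had one found in all 3 N3ICD libraries. Within 50 kb all 3 genes had a region, against 2.52% of protein-coding genes, and within 10 kb HEY2 and HEYL did, against 1.39%. Without N3ICD C, a single region was left, at HEY2, and without N3ICD A there were 2, at HEY1 and HEY2.

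**Figure D2:**
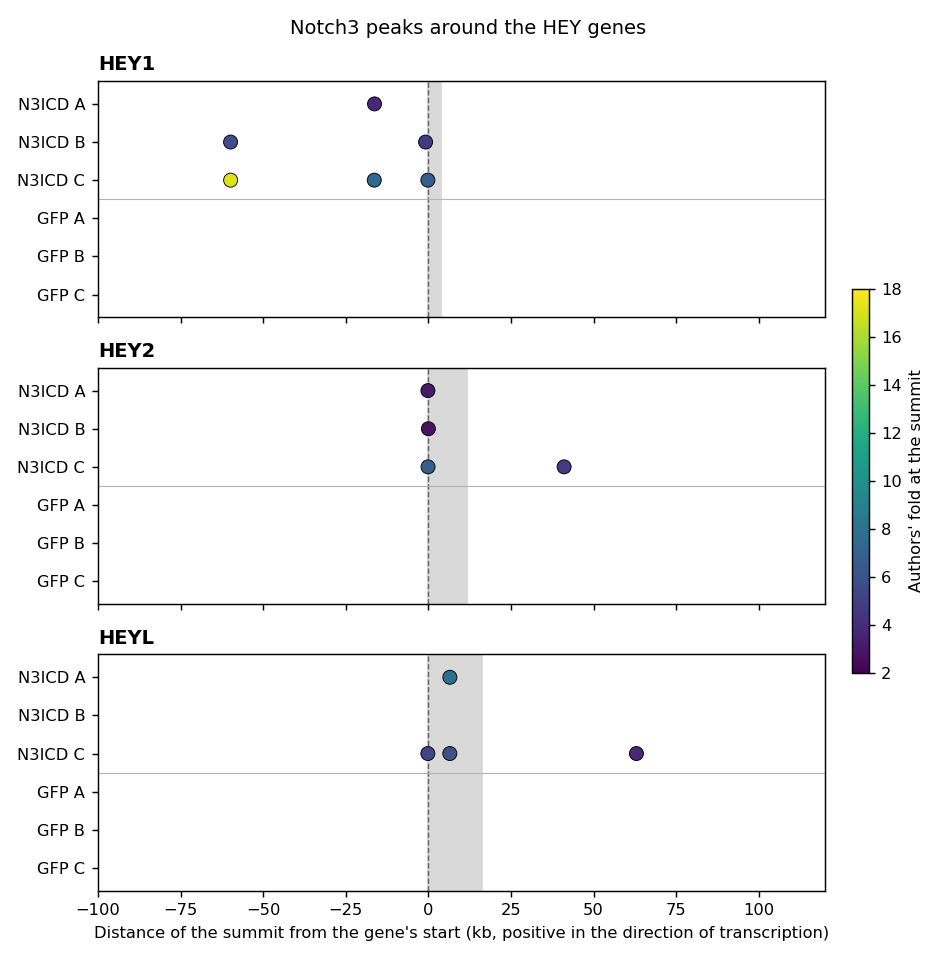
Each point is the summit of a peak, placed by its distance in kb from the start of the gene (positive in the direction of transcription) and by library, with colour for the authors' fold. Grey bands are the gene spans. HEY1 summits lie before the start of the gene, out to 59.9 kb, HEY2 peaks gather at the start, and the strongest HEYL peaks lie inside the gene.

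HEY1, which is best known as a Notch target in many tissues, had its peaks at 3 places on the side of its start, the high-coordinate end. The strongest was the farthest, about 60 kb before the gene (region 79827462 to 79827921). There the fold, the authors' enrichment of pileup over background at the summit, taken to have 1 added to both, was 5.81 in N3ICD B and 17.1 in N3ICD C, with pileups of 14 and 32 and −log10 q of 3.78 and 31.4. The summits of the 2 libraries were 17 bp apart. In N3ICD C this peak ranked 3 by significance among all 3397, and in N3ICD B the peak was at rank 26 of 2490. N3ICD A had no peak there.

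The second HEY1 place was about 16 kb before the start (region 79783749 to 79784226). In N3ICD A it had a fold of 3.78, a pileup of 9 and a −log10 q of 0.517, at rank 759 of its 2226 peaks. In N3ICD C it had a fold of 7.32, a pileup of 17 and a −log10 q of 7.48, at rank 17 of 3397. Their summits were 81 bp apart. Both places lie inside long non-coding RNA genes, LOC101927040 for the farther and both LINC01607 and LOC101927040 for the nearer. Apart from HEY1 itself the window held a single protein-coding gene, STMN2, whose nearer end was 97852 bp from HEY1. HEY1 was the protein-coding gene nearest to all 6 of these peaks.

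The last place was the start of HEY1 and the 1 kb before it. N3ICD C had a peak there (79767509 to 79767990; fold 6.64, pileup 12, −log10 q 4.75) with its summit 151 bp before the start. N3ICD B had one (79768499 to 79768712; fold 4.65, pileup 11, −log10 q 1.71) with its summit 844 bp before the start, inside LINC01607, whose nearer end is 375 bp from HEY1. The N3ICD B peak did not reach the start, and its summit was 469 bp from the nearer end of LINC01607. The N3ICD B and N3ICD C peaks were separated by 508 bases, so they did not form one region. N3ICD A had no peak within 1 kb of the start.

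HEY2, the family member known for its part in heart and artery development, had a peak across its start in every N3ICD library. The region (125749282 to 125749830) was the only one of the HEY regions found in all 3. The folds were 3.09, 2.75 and 6.87 in N3ICD A, B and C, with pileups of 6, 10 and 13. The −log10 q was 0.104, 0.244 and 5.35, and the ranks by significance in the libraries were 1823, 2383 and 35. In N3ICD B the local background was 2.99 stacked fragments, against 1.58 for that library as a whole, and the fold was at percentile 1.41 of the library's peaks. The summits lay 134 bp before the start in N3ICD A, 8 bp after it in N3ICD B and 99 bp before it in N3ICD C. Of the 15841 protein-coding genes with a start in the promoter table, 0.0884% had a summit within 1 kb of a start in all 3 N3ICD libraries and in no GFP library. Among peaks with a −log10 q of 1.3 or more the HEY2 region was left with N3ICD C alone. The nearer end of the non-coding gene HEY2-AS1 lies 207 bp before HEY2, within the same region. The N3ICD A summit was 73 bp from that end, against 134 bp from HEY2.

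The fourth HEY2 peak (125790651 to 125790908; fold 4.67, −log10 q 1.39) was in N3ICD C alone. It lay 29447 bp past HEY2, inside NCOA7, which encodes a nuclear receptor coactivator of the oxidative stress response, 9601 bp from the nearer end of that gene, the nearest among protein-coding genes. The end of the non-coding NCOA7-AS1 was 7145 bp away. HEY2 is therefore not the closest gene to it.

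HEYL, expressed in vascular smooth muscle and pericytes, had its strongest peaks inside the gene, 6515 bp past its start in N3ICD A and 6499 bp in N3ICD C (region 39632857 to 39633551). The fold was 7.70 in N3ICD A and 6.05 in N3ICD C, the pileup was 17 and 11, and the −log10 q was 7.52 and 3.72. The summits were 16 bp apart, although the N3ICD C peak was 695 bp wide and the N3ICD A peak 253 bp. In N3ICD A this was peak 5 of 2226 by significance. N3ICD B had no peak there, and its nearest summit to HEYL was 551 kb away. Whether an exon or an intron holds the site was not determined, as exon positions were not used here.

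N3ICD C also had a peak across the start of HEYL (39639347 to 39640100; fold 5.19, pileup 9, −log10 q 2.11), with its summit 155 bp before the start. N3ICD A and N3ICD B had none there. The last HEYL peak, again of N3ICD C (39576586 to 39577013; fold 3.80, −log10 q 0.724), lay 46762 bp from HEYL and 117 bp inside the high-coordinate end of PABPC4, which encodes a cytoplasmic poly(A)-binding protein. HEYL is thus not the closest gene to that peak. The HEYL window was the richest in other genes, with BMP8A, PABPC4, NT5C1A, HPCAL4 and PPIE as its other protein-coding genes.

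The HEY peaks were compared with the rest of their own libraries, as a description. The fold was at or above percentile 90 of the library in 10 of the 14 peaks. The exceptions were the HEY2 start in N3ICD A (percentile 23.9) and N3ICD B (1.41), the nearer HEY1 place before the start in N3ICD A (64.9) and the PABPC4 peak in N3ICD C (53.2). The N3ICD libraries had 1, 2 and 7 HEY peaks with a −log10 q of 1.3 or more, and 1, 0 and 3 with 5 or more. Of all their peaks, 146, 352 and 678 reached 1.3, and 13, 11 and 42 reached 5, so N3ICD C had the most of them over all genes too. The 4 peaks past 5 were 2 of HEY1 and 1 of HEY2 in N3ICD C and 1 of HEYL in N3ICD A. A peak this strong within 100 kb in any N3ICD library was found at all 3 HEY genes and at 1.13% of protein-coding genes. No 2 libraries shared a site at that level, so no HEY region was N3ICD-only among such peaks.

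**Figure D3:**
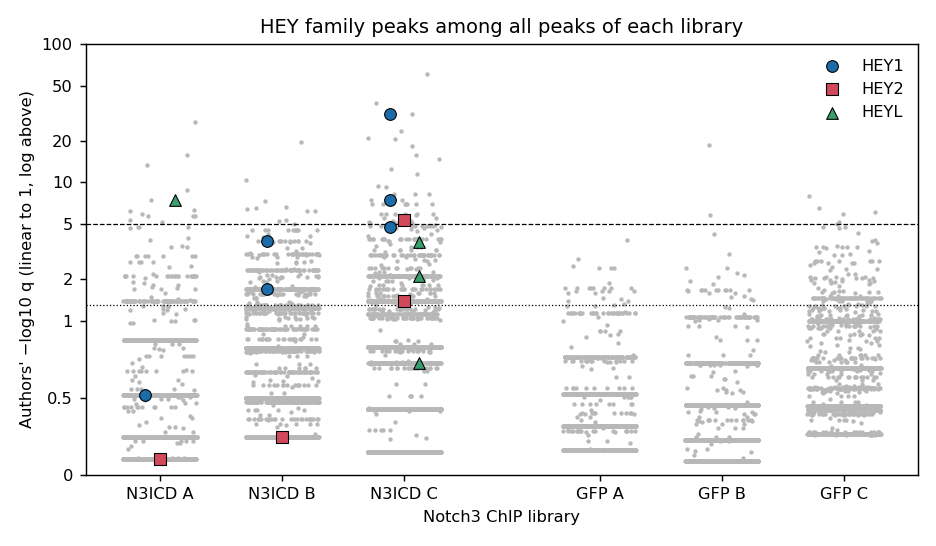
Grey points are all peaks of each library by the authors' −log10 q (linear up to 1 and logarithmic above, horizontal scatter at random), and large symbols are the HEY family peaks. The dotted line is at 1.3 and the dashed line at 5. HEY1 in N3ICD C at 31.4 and HEYL in N3ICD A at 7.52 stand near the top of their libraries, and both HEY2 peaks of N3ICD A and B stand near the bottom.

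Some of the HEY peaks lay at starts of the genes and some did not. Of the 14, 6 had a summit within 1 kb of a HEY start, 2 at HEY1, 3 at HEY2 and 1 at HEYL. A summit this close to a start was found at 1.43%, 4.14% and 5.66% of the 15841 genes with N3ICD, against 0.0253%, 0.0379% and 0.114% with GFP. These are shares of genes, and the N3ICD genes numbered 226, 656 and 897. The share of all N3ICD peaks that lay at a start was not counted, so the 6 of 14 has no like share beside it. HEY2 was among these genes in all 3 N3ICD libraries and HEYL in N3ICD C alone, while HEY1 was not in the promoter table used. The HEY peaks were 214 to 754 bp wide.

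The printed promoters were searched for short motifs on both strands, counting positions back from the start. The HEY2 promoter held GTGGGAA at 2 places, in opposite directions and 202 bases apart. The upstream one began 213 bases before the start on the reverse strand, and the other began 4 bases before the start and ran to base 3 of the gene. The HEYL promoter held GTGGGAA once, from 178 bases before the start on the reverse strand, and a further TGGGAA from 99 bases before the start on the forward strand. Of the 35116 promoters in the table, alternative starts included and searched over the same full length, 6.25% held GTGGGAA and 0.248% held it more than once. TGGGAA, which GTGGGAA contains, was in 24.0%, and more than once in 3.80%.

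Summits and cores can be set side by side. At the HEY2 start, the core across the start was 133, 9 and 98 bp from the summits of N3ICD A, B and C, and inside all 3 peaks. The upstream HEY2 core was 76, 218 and 111 bp from the same summits and lay outside the peak of N3ICD A. At the HEYL start, GTGGGAA was 20 bp and the other TGGGAA 58 bp from the only summit there, that of N3ICD C. Neither promoter held the E-boxes CACGTG and CACGCG or the N-box CACNAG, letters read by proteins of the HES and HEY class, which were in 7.26%, 11.4% and 38.0% of all promoters. Both promoters were rich in G and C, at 79.2% for HEY2 and 79.6% for HEYL over the 250 bases before the start, against a median of 58.0% over all promoters. A match of letters is not a bound site, and the HEY1 places and the site inside HEYL were not searched.

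**Figure D4:**
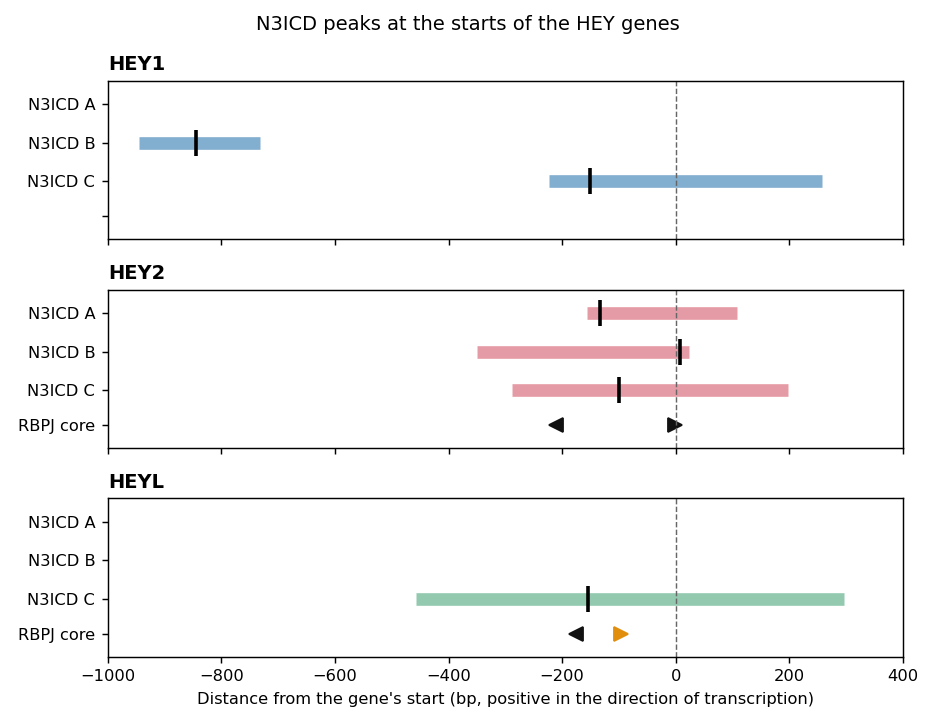
Bars show the extent of each N3ICD peak within 1 kb of a HEY start, with a black tick at the summit, by distance in bp from the start. Black triangles are GTGGGAA and the orange one TGGGAA alone, pointing in the direction in which the letters read, for HEY2 and HEYL. All 3 HEY2 peaks cross the start, the HEYL peak is from N3ICD C alone, and the HEY1 peaks of N3ICD B and C do not overlap.

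The HES genes, a sister family of repressors of which only some are known Notch targets, were counted in windows of the same reach, without a test. HES4 had 3, 1 and 2 peaks with N3ICD, HES1 had 1, 0 and 3, HES7 had 0, 2 and 0, and HES6 had 0, 0 and 1. HES2, HES3 and HES5 had none. No HES gene had a GFP peak, as was the case for 82.2% of protein-coding genes. One of the 7 HES genes, HES4, had an N3ICD-only region, which is 14.3%. Of 30 other Notch pathway genes 6 had one, which is 20.0%: MAML1 and MAML3, coactivators of the complex, the receptors NOTCH1 and NOTCH3, the feedback inhibitor NRARP, and SPEN, a corepressor with RBPJ. Among 3 related repressors BHLHE40 had one and BHLHE41 and HELT did not. Of 18 mural cell markers, MCAM and TAGLN had one, and of 12 neural crest markers none did. MCAM also had 1 peak of GFP B elsewhere in its window. The share over all protein-coding genes was the 3.87% given above, so 0 of so few markers carries no information on the neural crest list. The counts of the other lists rest on few genes too and were not tested against that share.

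Genes on other chromosomes whose pattern was most like that of a HEY gene were named by the highest percentile of fold within 100 kb in each of the 6 libraries, 0 where there was no peak. For HEY1 (64.9, 99.2 and 99.9 in N3ICD A, B and C, 0 in GFP) the nearest were MLLT10 and SKIDA1, at a Euclidean distance of 4.74, and A4GNT, at 5.89, where the median gene was at 146. For HEY2 (23.9, 1.41 and 99.1) they were IER5 and MR1, at 1.63, and KIAA1614, at 3.56, with the median gene at 102, but none of these had a peak in N3ICD B. For HEYL (99.9, 0 and 97.4) they were BSCL2, GNG3 and PXDNL, at 1.55, with the median gene at 140. MLLT10 and SKIDA1 share their values, as do IER5 and MR1, and BSCL2 and GNG3.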

How the data were processed

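The cells were fixed in 1% formaldehyde and chromatin was digested enzymatically, per the labels' protocols. The submitters' processing notes name MACS3 3.0.0a7, Bowtie2 2.2.1, deepTools 3.5.1, bedtools 2.30.0 and SAMtools 1.11 on hg38. Their options, and the control of each peak call, are not given in the sources used here. Input libraries, 6 in number, are not analysed here. Each ChIP library has its own peak list, per the files deposited by the authors. The deposited fold is a ratio of pileup to local background, taken here to have 1 added to both terms, and the deposited −log10 values are the caller's p and q, from 3.30 upwards for p. The deposited signal is the summit pileup, from the authors' table of the series, which equals the lists in position and fold for all 12583 peaks. Folds and pileups describe peaks within a library. Those set side by side from different libraries carry no test and are not scaled for depth.

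Summits were assigned to every gene within 100 kb, with spans and starts from RefSeq (GRCh38.p14). The start of HEY1, absent from the promoter table used, was taken as its high-coordinate end. Peaks overlapping by at least 1 bp formed regions. Counts per library were compared with two-sided exact permutation tests. The genome-wide background is the lowest repeated value of (pileup + 1) / fold − 1. The members, gene lists and tests were chosen with earlier results of these data known, so no list is independent evidence. Named genes are the HEY and HES genes, the list genes with an N3ICD-only region, the neighbours of HEY peaks and the 3 most alike genes on other chromosomes. Nothing says that the differentiations of the N3ICD and GFP libraries were shared by letter. The scripts, which were tested on simulated data, ran on Python 3.11.15, pandas 2.3.3, numpy 2.4.6 and matplotlib 3.10.9.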

Additional observations from a re-analysis of the deposited data

How the results depend on the processing

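With 0 HEY peaks in the GFP lists, the settings run here could not reverse the difference in HEY peaks per library, so its sign says nothing of stability. It was 4.67 in the report, 4 within 50 kb or with only peaks nearest to a HEY gene, 2.67 within 10 kb, 3.67 with equal numbers of peaks, 3.33 for peaks with a −log10 q of 1.3 or more and 1.33 for 5 or more (exact permutation p = 0.4). Of all GFP peaks, 26, 28 and 139 reached a −log10 q of 1.3, and 0, 2 and 5 reached 5. An absence of HEY peaks among so few carries little information. With the replicate block of letters A, B and C the difference was again 4.67 (exact sign-flip p = 0.25, the smallest possible). Deviations of same-letter libraries over all genes correlated at 0.0111, −0.00649 and −0.0151, and those of different letters at −0.0164 to 0.0202. Most genes had no peak in a library, so these values cannot show whether the letters are pairs. The main tests did not treat them as pairs. Leaving out 1 library gave 3 to 5.5 peaks for the family, 1.5 to 2.5 for HEY1, 1 to 1.5 for HEY2, 0.5 to 2 for HEYL and 1.28 to 1.85 per 1000 peaks.

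HEY genes with an N3ICD-only region numbered 3 in the report, 0 for a −log10 q of 5 or more and 1 (HEY2) when all 3 libraries were required. Regions numbered 4, with 2 for a −log10 q of 1.3 or more, 0 for 5 or more, 2 within 10 kb and 1 with all 3 libraries required. With reciprocal overlap of 50% the HEYL region was lost, which left 2 genes. Leaving out 1 library gave 1 to 3 genes and 1 to 4 regions. By construction a stricter setting keeps fewer peaks. No p-value of 3 libraries against 3 can pass 0.05. The number of reads is unknown, so weak peaks, such as HEY2 in N3ICD A and B, cannot be weighed by depth.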

Other observations

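GTGGGAA was counted in all promoters of protein-coding genes that lay under N3ICD-only regions. The HEY2 promoter is among them and holds it, so these shares are not separate from the HEY2 result. Of the 125 promoters of protein-coding genes that such a region overlapped, alternative starts counted, 18 held it, which is 14.4%, against 6.01% of all 22198 promoters of protein-coding genes. The class C E-box CACGCG was in 26.4% of the 125 and in 14.2% of the 22198, CACGTG in 12% and 8.34%, TGGGAA in 24.8% and 22.7%, and the N-box CACNAG in 32.0% and 36.9%. These shares carry no test, promoters of one gene are not independent, and base composition was not matched.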
